A study of Homo sapiens with 8 samples.

Results

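The genes described here are 4 ligands of the epidermal growth factor receptor EGFR (AREG, EREG, HBEGF and TGFA) and 6 feedback inhibitors of the RAS-ERK (MAPK) cascade that this receptor switches on (DUSP4, DUSP5, DUSP6, SPRY2, SPRY4 and SPRED1). They were picked by symbol, 10 of the 28265 genes in the count tables. Their RNA was measured by "factory" RNA-Seq, a method that enriches the RNA still attached to sites of transcription, in IMR90, human fetal lung fibroblasts with a limited lifespan. The 8 libraries, 2 per condition, come from low passage wild-type cells without ICM (labelled young, here called control), from low passage cells after 3 days or 6 days of inflachromene (ICM), a small molecule that binds the chromatin proteins HMGB1 and HMGB2, and from low passage cells labelled MetaICM. The labels do not say how MetaICM differs from ICM, how long it lasted or whether control cells received vehicle, so these libraries are given under their label only. All conditions share the IMR90 background, and nothing in the labels says that replicates are separate cultures, so p-values measure the spread between these libraries, which may be technical. Per the labels the libraries were made from poly(A)+ RNA. The counts cover exons only, so that nascent and finished RNA cannot be told apart, nor can fewer expressing cells from less RNA per cell.

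EGFR ligands are made as membrane proteins, cut loose by ADAM proteases and bound by receptors on the same or neighboring cells, which then activate RAS, RAF, MEK and ERK. ERK in turn raises transcription of its own inhibitors. The DUSP phosphatases among the 10 genes take phosphate off ERK, while Sprouty (SPRY) and SPRED proteins act upstream, at RAS and RAF. In fibroblasts these genes are known as fast readouts of growth factor signaling, and AREG, EREG and HBEGF are also known as secreted products of stressed or senescent cells. In these libraries AREG, EREG, DUSP4, DUSP5 and DUSP6 were higher after 6 days of ICM than in control, and HBEGF was lower after 3 and after 6 days. MetaICM held the least AREG of all conditions, with DUSP5 overlapping its control level and DUSP6 above it. The genes are taken up by role, ligands before phosphatases and Sprouty relatives.

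AREG and EREG, the ligands both highest after 6 days of ICM, are neighbors on chromosome 4 in the order EREG, AREG, while HBEGF, which was lower at both ICM time points, lies on chromosome 5. Their sequences just upstream of the start site are shown because they differ in the motifs found in them. RefSeq promoters (GRCh38.p14, 300 bases, from 250 before to 50 after the start) were at hand for 8 of the 10 genes, in 11 entries. The 150 bases before the start are printed 5′ to 3′ on the gene's strand, with capitals marking TGACG or its palindrome TGACGTCA, the letters of the cyclic AMP response element, and TATAAA, those of the TATA box.
AREG, chr4:74444986-74445135, plus strand: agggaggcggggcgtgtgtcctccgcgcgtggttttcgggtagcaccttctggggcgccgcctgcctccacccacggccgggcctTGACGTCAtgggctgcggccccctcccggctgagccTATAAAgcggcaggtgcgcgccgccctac
EREG, chr4:74364995-74365144, plus strand: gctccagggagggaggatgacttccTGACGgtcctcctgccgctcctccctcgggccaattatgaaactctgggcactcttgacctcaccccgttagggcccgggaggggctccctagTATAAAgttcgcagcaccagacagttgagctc
HBEGF, chr5:140346604-140346753, minus strand: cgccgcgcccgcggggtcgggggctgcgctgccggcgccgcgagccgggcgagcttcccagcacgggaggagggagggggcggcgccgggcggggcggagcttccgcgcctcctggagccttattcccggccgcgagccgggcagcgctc

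In AREG the palindrome begins 65 bases and TATAAA 29 bases before the start, and in EREG TGACG begins 125 bases and TATAAA 32 bases before it. Neither motif occurs in the 300 bases of HBEGF. Searched on both strands of all 35116 RefSeq promoters of this length, TGACG, which also lies inside TGACGTCA, was found in 24.6%, TGACGTCA in 1.85% and TATAAA in 11.5%. SPRY2, SPRY4 and TGFA also hold TGACG, while TGANTCA, the AP-1 letters, present in 7.71% of promoters, was found in none of the 8 genes. CCAAT, present in 34.6%, was found in EREG and DUSP6. A match is a stretch of letters and says nothing on whether a factor was bound.

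The libraries held 12095123 to 23166405 counted read pairs, with a median of 18642269.5. Control replicates lay farthest apart (chi-square per degree of freedom between replicates 22.75, against 5.44 to 10.71 in the other conditions), and results that rest on this spread are marked below. All 10 fibroblast markers had at least 10 counts in every library, while their summed level ran from a mean of 23340 counts per 1e6 counted pairs (CPM) in control to 13740 after 3 days, 11230 after 6 days and 20830 in MetaICM. Epithelial markers, of which 2 of 6 reached 10 counts in every library, summed to 35.12 to 103.0 CPM, with means of 85.54 in control, 36.71 and 36.08 after 3 and 6 days and 67.88 in MetaICM. Endothelial markers (2 of 4) summed to 2.04 to 6.658 CPM, with means of 3.808 in control, 5.794 and 6.517 after 3 and 6 days and 2.456 in MetaICM. Blood markers (1 of 3) summed to 4.388 to 21.1 CPM, with means of 5.196, 18.98, 19.21 and 13.13 in the same order. Thus fibroblast and epithelial sums were lower and endothelial and blood sums higher with ICM, with SFTPC, CDH5 and CD3E at 3 counts or fewer everywhere. The part of these markers in the results was not tested.

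Levels are given as CPM scaled over all 8 libraries (TMM), and comparisons as log2 fold changes (log2FC) from a fit of the 4 libraries compared. A gene was called higher or lower with an adjusted p-value under 0.05 from edgeR's quasi-likelihood test and an absolute log2FC over 0.6. Set side by side per kilobase of exon (RPKM), the mean over 8 libraries was highest for DUSP5 (25.04), followed by DUSP6 (19.76), SPRED1 (12.51), SPRY4 (8.81), SPRY2 (3.77), HBEGF (2.46), EREG (2.24), AREG (0.618), DUSP4 (0.566) and TGFA (0.00307). In this order of RPKM the library ranges of SPRED1 (11.39 to 13.4) and SPRY4 (7.18 to 9.95) did not overlap, nor did those of SPRY4 and SPRY2 (2.22 to 4.89) or of DUSP4 (0.216 to 0.886) and TGFA (0 to 0.0245). The other pairs of neighbors overlapped over the 8 libraries. The feedback genes other than DUSP4 were thus the higher and the ligands the lower part of the list. The RPKM of AREG is uncertain and may be too low. It divides by 2466 exon bases, which are 1233 at each of 2 near-identical loci, and how pairs matching both were counted is not settled.

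**Figure D1:**
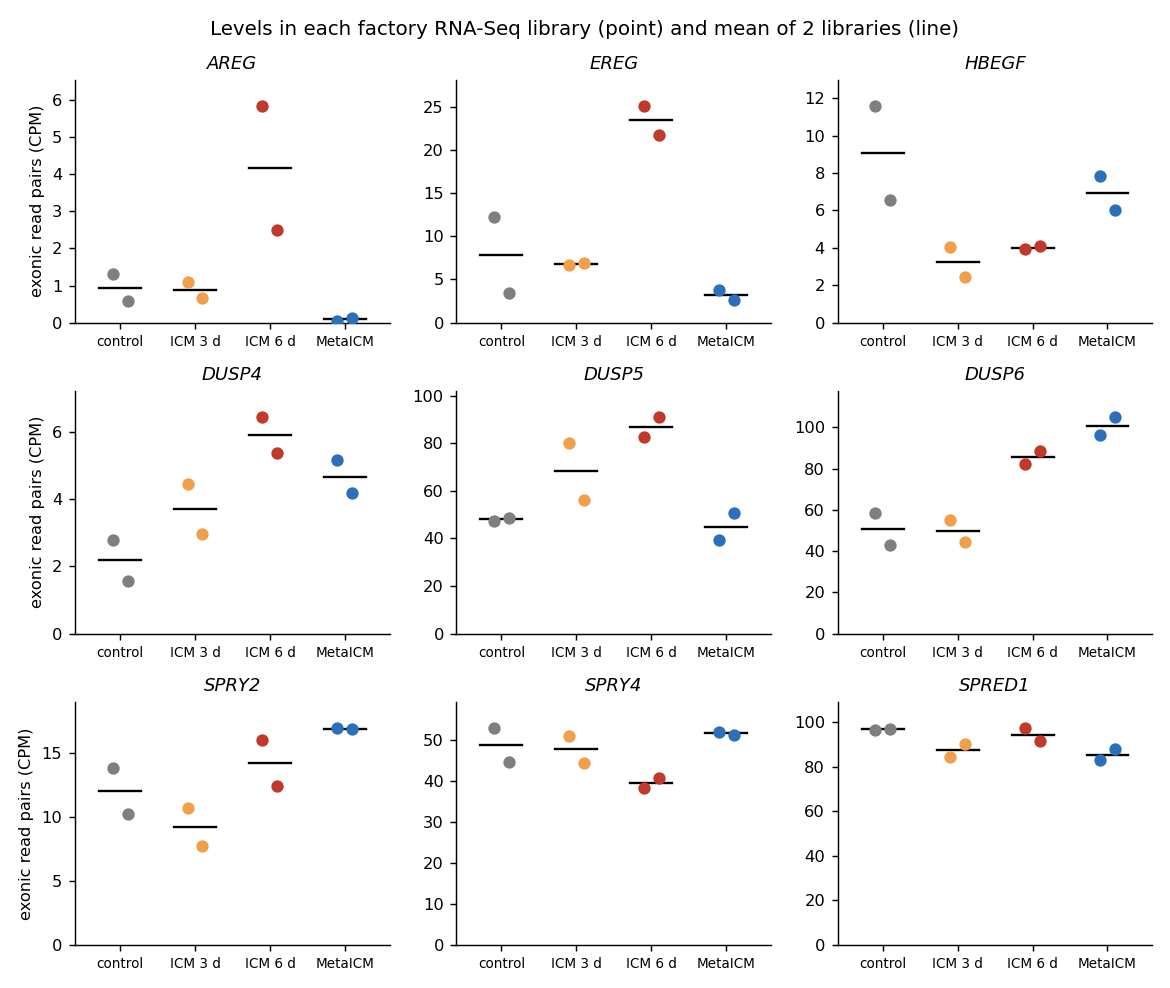
Level of 9 of the 10 genes in CPM of exonic read pairs (vertical axes start at 0) in each library (points) and the mean of the 2 libraries per condition (lines). AREG and EREG stand highest after 6 days of ICM and lowest in MetaICM, HBEGF is low at both ICM time points, DUSP6 is high after 6 days and in MetaICM, and SPRED1 varies little. TGFA is not drawn, with 2 counts in all.

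AREG encodes amphiregulin, a low-affinity EGFR ligand. It was counted at 2 near-identical loci on chromosome 4 of hg19 (GRCh37), from 75310853 to 75320721 and from 75480629 to 75490480, and 96.6% of the 50-base windows of the exons at the former were found unchanged at the latter, so its counts are uncertain. Its level was 1.31 and 0.58 CPM in the control libraries, 1.10 and 0.67 CPM at 3 days, 5.85 and 2.50 CPM at 6 days and 0.050 and 0.13 CPM in MetaICM. Control and 3-day libraries thus overlapped, both 6-day libraries stood above them, and both MetaICM libraries, with 1 and 3 counts, stood below all others. Against control, AREG rose after 6 days (log2FC 2.06, with a standard error, SE, of 0.48, adjusted p = 0.00621) and differed by −0.10 (adjusted p = 0.899) after 3 days. The 6-day rise rested on replicate 1, without which it was 1.34 (adjusted p = 0.0673). It was also higher after 6 than after 3 days (2.17, SE 0.39, adjusted p = 0.000624). MetaICM held 4 counts in its 2 libraries together. Scaled to the summed libraries, control, with 29 counts, exceeded it 10.8-fold (95% exact binomial interval 3.81 to 42.5). The 3-day libraries, with 34 counts, exceeded it 10-fold (3.58 to 39.0) and the 6-day libraries, with 156, 45.0-fold (17.2 to 167). Intervals and floors here cover counting error only. All 3 of these differences were called (adjusted p = 0.0084, 0.00105 and 5.219e-08), with fitted log2FC of −3.32, −3.22 and −5.40 that depend on the prior count. In each of them AREG passed the count filter only through the condition where it was higher, so the direction was close to fixed in advance. Without MetaICM replicate 1, the difference from control had an adjusted p of 0.0712.

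EREG, epiregulin, a broad ligand of EGFR and ERBB4, lies on chromosome 4 from 75230862 to 75254464. It had 12.2 and 3.39 CPM in the control libraries, 6.67 and 6.88 CPM after 3 days, 25.1 and 21.7 CPM after 6 days and 3.81 and 2.65 CPM in MetaICM. The 2 control libraries lay on either side of the 3-day libraries and reached down into the range of MetaICM, so the comparisons among ICM conditions, which leave control out, are the tighter ones. From 3 to 6 days EREG rose by a log2FC of 1.79 (SE 0.15, adjusted p = 5.932e-08). MetaICM was lower than 6 days by a log2FC of −2.87 (SE 0.16, adjusted p = 1.899e-12) and lower than 3 days by −1.07 (SE 0.22, adjusted p = 0.00121). These 3 calls held with each library left out. Against control, the rise after 6 days was 1.52 (SE 0.37, adjusted p = 0.00794), 0.94 without control replicate 2 and 2.77 without control replicate 1, and was not called by DESeq2 (1.59, adjusted p = 0.147). After 3 days the log2FC was −0.25 (adjusted p = 0.682), but 0.99 without control replicate 1 and −0.88 without control replicate 2, each of which would be called (adjusted p = 0.00898 and 0.00171). MetaICM was called lower than control by −1.33 (SE 0.45, adjusted p = 0.0499) although the libraries overlapped, and by only −0.08 without control replicate 1.

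HBEGF, heparin-binding EGF-like growth factor, on chromosome 5 from 139712428 to 139726188, took another course. It measured 11.6 and 6.54 CPM in the control libraries, 4.05 and 2.43 CPM after 3 days, 3.92 and 4.09 CPM after 6 days and 7.82 and 6.03 CPM in MetaICM. All 4 ICM libraries stood below all control and MetaICM libraries, which overlapped with each other. The fall against control was −1.47 after 3 days (SE 0.32, adjusted p = 0.00467) and −1.20 after 6 days (SE 0.27, adjusted p = 0.00505), with a difference of 0.27 between the time points (adjusted p = 0.517). MetaICM was higher than 3 days by a log2FC of 1.06 (SE 0.24, adjusted p = 0.00283) and higher than 6 days by 0.78 (SE 0.19, adjusted p = 0.00143). Its difference from control was −0.42 (adjusted p = 0.252), 0.08 without control replicate 1 and −0.75 without control replicate 2, where it would be called (adjusted p = 0.000448). The calls of HBEGF against either ICM time point held under every alternative and with each library left out, but the 6-day fall shrank to −0.72 without control replicate 1 and grew to −1.53 without control replicate 2. Summed epithelial markers, of which 2 of 6 reached 10 counts in every library, were also lower in the ICM conditions, as were summed fibroblast markers. A link between either sum and HBEGF was not tested.

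TGFA, transforming growth factor alpha, on chromosome 2 from 70674416 to 70780958, had 2 counts in 6-day replicate 1 (0.107 CPM) and 0 in the other 7 libraries. A count of 0 allows up to 3 counts, or 0.130 to 0.248 CPM depending on the library, so that TGFA was at or under the limit of detection and was not tested.

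The DUSP genes encode phosphatases that differ in where they meet ERK: DUSP4 and DUSP5 in the nucleus, DUSP6 in the cytoplasm. DUSP4, on chromosome 8 from 29190579 to 29208201, was the lowest of them. Its level was 2.79 and 1.57 CPM in control, 4.46 and 2.97 CPM after 3 days, 6.44 and 5.37 CPM after 6 days and 5.15 and 4.17 CPM in MetaICM. Each treated library stood above both control libraries, and the 3-day libraries reached into the MetaICM range. Against control the log2FC was 0.75 after 3 days (SE 0.34, adjusted p = 0.125), 1.39 after 6 days (SE 0.29, adjusted p = 0.00318) and 1.04 in MetaICM (SE 0.29, adjusted p = 0.0254), of which the latter 2 were called. The 3-day difference ran from 0.39 to 1.26 with each library left out and would be called without control replicate 1 (1.26, adjusted p = 0.0132). The MetaICM call was lost with DESeq2 (adjusted p = 0.0581) and without MetaICM replicate 1 (adjusted p = 0.132). From 3 to 6 days DUSP4 differed by 0.63 (adjusted p = 0.0604), which would be called without 3-day replicate 1 (0.99, adjusted p = 0.00329).

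DUSP5, on chromosome 10 from 112257665 to 112271289, was higher with ICM and overlapped control in MetaICM. It measured 47.4 and 48.6 CPM in control, 80.3 and 56.1 CPM after 3 days, 82.4 and 91.1 CPM after 6 days and 39.4 and 50.5 CPM in MetaICM. Control lay within the MetaICM range and both were below every ICM library. The rise after 6 days was a log2FC of 0.85 (SE 0.12, adjusted p = 0.000275), from 0.78 to 0.93 with each library left out, while the 3-day difference of 0.51 (adjusted p = 0.0414) stayed short of 0.6. With each library left out the latter ran from 0.21 to 0.76, and it would be called without 3-day replicate 2 (adjusted p = 0.0106). MetaICM was lower than 6 days by −0.94 (SE 0.10, adjusted p = 3.653e-08). It was also called lower than 3 days, at −0.60 (SE 0.15, adjusted p = 0.00444), on the edge of the cutoff. That last call was lost without 3-day replicate 1 (−0.31), without MetaICM replicate 1 (−0.43), with DESeq2 (adjusted p = 0.132) and with the replicate number as a block (−0.59).

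DUSP6, a target of ERK signaling in many tissues, lies on chromosome 12 from 89741014 to 89746278. It had 58.7 and 42.9 CPM in control, 54.9 and 44.5 CPM after 3 days, 82.2 and 88.8 CPM after 6 days and 96.1 and 105 CPM in MetaICM. The 3-day libraries lay within the control range, whereas both the 6-day and the MetaICM libraries were above it. DUSP6 rose against control by a log2FC of 0.74 after 6 days (SE 0.15, adjusted p = 0.00271), though by only 0.54 without control replicate 2, and was higher by 0.98 in MetaICM (SE 0.15, adjusted p = 0.00163). It differed by −0.03 after 3 days (adjusted p = 0.905). It rose by 0.77 from 3 to 6 days (SE 0.11, adjusted p = 4.404e-05) and was higher in MetaICM than after 3 days by 1.02 (SE 0.10, adjusted p = 2.337e-06). MetaICM exceeded 6 days by 0.24 (adjusted p = 0.0126), short of the cutoff. DUSP5 and DUSP6 thus both rose by 6 days, but in MetaICM DUSP5 was at 45.0 ± 7.87 CPM (SD, n = 2), close to its control mean of 48.0 ± 0.862 CPM, and DUSP6 at 101 ± 6.34 CPM against 50.8 ± 11.2 CPM.

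SPRY2, which holds back receptor signaling toward RAS, lies on chromosome 13 from 80910111 to 80915261. Its level was 13.8 and 10.2 CPM in control, 10.7 and 7.69 CPM after 3 days, 16.0 and 12.4 CPM after 6 days and 16.9 and 16.8 CPM in MetaICM. Control overlapped with both ICM time points, and the MetaICM libraries were above all others. No difference from control was called (−0.38 after 3 days, 0.23 after 6 days and 0.48 in MetaICM, adjusted p = 0.235, 0.376 and 0.0582), although the last would be called without control replicate 1 (0.73, adjusted p = 0.000124). MetaICM was higher than 3 days by a log2FC of 0.86 (SE 0.16, adjusted p = 0.000491). The 6-day level was called higher than the 3-day one at 0.60 (SE 0.18, adjusted p = 0.0218), on the cutoff. That call was lost with library totals (0.57), with DESeq2 (adjusted p = 0.0612), without 3-day replicate 2 (0.39) and without 6-day replicate 1 (0.42).

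SPRY4, a relative of SPRY2 on chromosome 5 from 141690000 to 141704586, passed the cutoffs in no comparison. It measured 52.9 and 44.5 CPM in control, 51.0 and 44.4 CPM after 3 days, 38.2 and 40.7 CPM after 6 days and 52.0 and 51.2 CPM in MetaICM. The 6-day libraries were the lowest, and the other conditions overlapped with control. MetaICM was above 6 days by a log2FC of 0.39 (SE 0.08, adjusted p = 0.000362), under the fold cutoff, and 6 days differed from control by −0.31 (adjusted p = 0.0792).

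SPRED1, which brings the RAS inhibitor neurofibromin to the membrane, lies on chromosome 15 from 38545037 to 38649450. It had 96.4 and 97.1 CPM in control, 84.4 and 90.3 CPM after 3 days, 97.4 and 91.4 CPM after 6 days and 82.8 and 88.1 CPM in MetaICM. These 8 values lie in a narrow range, and its log2FC ran from −0.18 (MetaICM against control, adjusted p = 0.221) to 0.11 (6 against 3 days, adjusted p = 0.445). No member exon overlaps an exon of another gene, so that the lack of strand in the counting does not mix them with other genes of the tables.

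**Figure D2:**
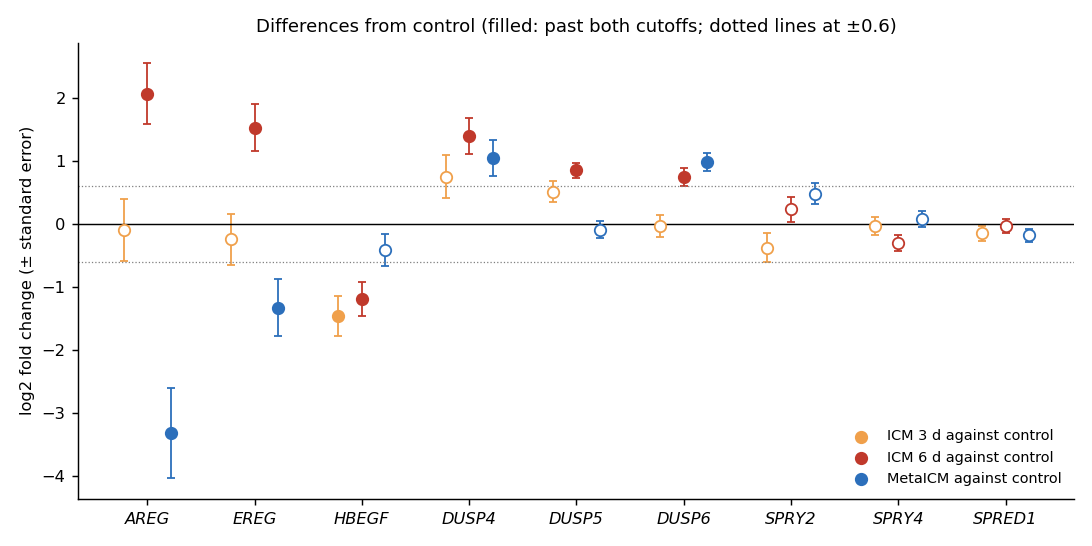
Difference from control (log2FC, vertical axis) of the 9 genes tested, for ICM 3 days, ICM 6 days and MetaICM. Bars are ± 1 standard error of the fit, filled points passed both cutoffs and dotted lines mark ± 0.6. AREG and EREG stand above 0 after 6 days and below 0 in MetaICM, HBEGF is below 0 at both ICM time points, and DUSP4 and DUSP6 are above 0 after 6 days and in MetaICM.

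Against control, the question was what ICM changed at either time point. After 3 days 0 of the 9 tested members were called higher, where 8.85% of 15692 genes were, and 1, HBEGF, was called lower, where 13.2% were. DESeq2 also called 0 higher, and at an unadjusted p under 0.05 edgeR's test passed 1 higher member, DUSP5. The members' median log2FC was −0.10 against 0.01 over all genes. After 6 days 5 members were called higher (AREG, EREG, DUSP4, DUSP5 and DUSP6), against a background of 13.3% of 15950 genes, and HBEGF lower, against 17.2%. The median of the members was 0.74, that of all genes −0.0013. In MetaICM, DUSP4 and DUSP6 were called higher (background 7.41% of 15904 genes) and AREG and EREG lower (8.99%), with a median of −0.10 against −0.0011 over all genes. These 3 comparisons share the control libraries, so their values are not independent of each other, and a low or high control library moves all of them together. The members and lists were chosen with earlier results of these data known. Counts and medians set beside all genes, here and below, are therefore a description only.

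Compared directly, 6 days against 3 days gave 4 members called higher (AREG, EREG, DUSP6 and SPRY2), against 3.53% of 15845 genes, and 0 called lower, against 4.54%. DESeq2 called 0 lower too, and at an unadjusted p under 0.05 edgeR's test passed 1, SPRY4 (−0.28, adjusted p = 0.0728), the tested member with a negative log2FC here. The median over the members was 0.60 and over all genes −0.01. Against 6 days, MetaICM had HBEGF called higher (background 15.7% of 16036 genes) and AREG, EREG and DUSP5 lower (12.0%). Against 3 days, it had HBEGF, DUSP6 and SPRY2 called higher (13.1% of 16209 genes) and AREG, EREG and DUSP5 lower (10.3%). The last 2 comparisons share the MetaICM libraries. By role, the 3 tested ligands were called in every direct comparison with MetaICM, with AREG and EREG lower and HBEGF higher, while of the 6 feedback genes 1 was called against 6 days and 3 were called against 3 days.

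**Figure D3:**
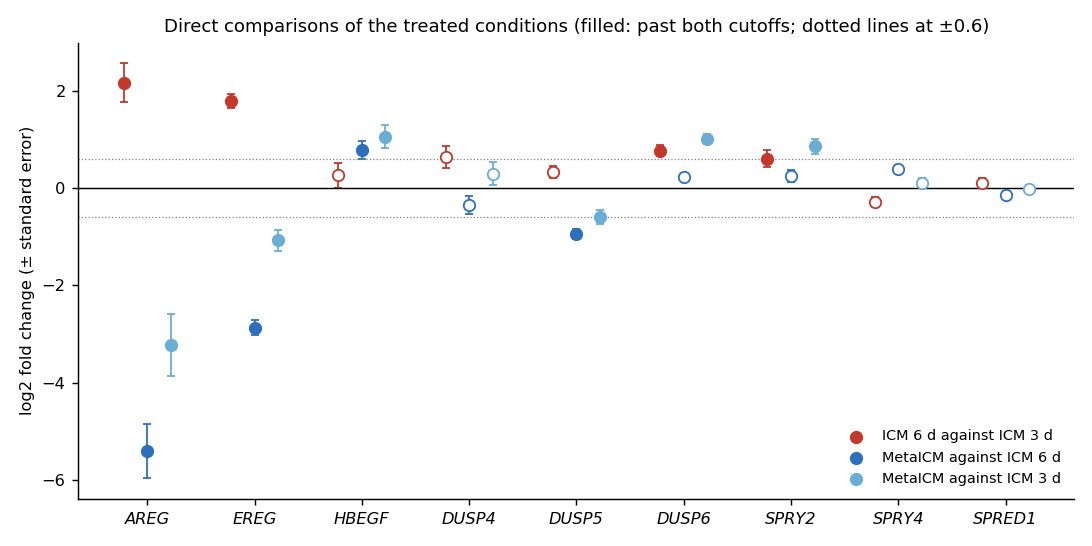
Differences between the treated conditions (log2FC, vertical axis) for the 9 genes tested: ICM 6 days against 3 days, MetaICM against 6 days and MetaICM against 3 days. Bars are ± 1 standard error of the fit, filled points passed both cutoffs and dotted lines mark ± 0.6. AREG and EREG are far above 0 from 3 to 6 days and far below 0 in both MetaICM comparisons, the lowest being AREG at −5.40.

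The surrounding pathway was taken from 62 further genes, grouped by role, of which 55 to 57 were tested in a comparison. Against control, 8 were called higher and 4 lower after 3 days, 9 higher and 7 lower after 6 days, and 8 higher and 8 lower in MetaICM, of 56, 57 and 56 tested. Over all genes the shares called higher and lower were 8.85% and 13.2% after 3 days, 13.3% and 17.2% after 6 days and 7.41% and 8.99% in MetaICM. The median log2FC of the list was 0.01, 0.05 and 0.03. EGFR itself, on chromosome 7, passed both cutoffs in no comparison. Its level was 367 ± 1.46 CPM (SD, n = 2) in control, 311 ± 16.7 CPM after 3 days, 280 ± 17.0 CPM after 6 days and 326 ± 16.2 CPM in MetaICM. The 6-day difference of −0.39 (SE 0.11, adjusted p = 0.0138) was under the fold cutoff, and 186 of the 11439 exon bases of EGFR overlap EGFR-AS1.

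Among the other ligands, 2 of 4 tested were called higher after 3 days, where 8.85% of all genes were, and after 6 days, where 13.3% were. NRG1, neuregulin 1, a ligand of ERBB3 and ERBB4, rose by a log2FC of 1.11 (adjusted p = 8.561e-05) and 1.40 (adjusted p = 8.163e-06), from 214 ± 8.28 CPM in control to 465 ± 81.7 CPM and 567 ± 62.8 CPM (SD, n = 2). EGF, the founding ligand, rose by 0.93 (adjusted p = 0.014) and 1.20 (adjusted p = 0.00183), from 3.42 to 6.56 and 7.93 CPM. In MetaICM NRG1 was at 85.0 ± 7.52 CPM, below control by −1.34 (adjusted p = 8.16e-05) and below 6 days by −2.74 (adjusted p = 4.432e-16). EGF and EPGN, epigen, which lies in the same cluster as EREG and AREG (chromosome 4, 75174187 to 75182503), were below 6 days by −1.91 (adjusted p = 8.1e-08) and −2.06 (adjusted p = 0.00102), EPGN with 10 counts in MetaICM against 37. Thus 3 of the 4 tested ligands outside the members were called lower in MetaICM than after 6 days, as AREG and EREG were, against 12.0% of all genes. EPGN and AREG passed the count filter here only through the 6-day libraries, where they were high. That they came out lower was thus close to fixed in advance, which leaves NRG1, EGF and EREG. BTC, betacellulin, at the far side of AREG in the same cluster, had 5 counts in all and was not tested.

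Of the 17 other feedback and negative regulators, 1 of 15 tested was called higher and 3 lower after 3 days (8.85% and 13.2% over all genes), and 1 of 16 higher and 4 lower after 6 days (13.3% and 17.2%). ERRFI1 (MIG6), which blocks the EGFR kinase, fell by −1.54 after 6 days (SE 0.11, adjusted p = 3.044e-06), from 114 to 39.4 CPM, and fell further from 3 to 6 days by −0.70 (adjusted p = 0.00103). LRIG1, which promotes EGFR breakdown, fell by −1.12 after 3 days (adjusted p = 7.835e-05) and by −1.02 after 6 days (adjusted p = 9.934e-05). In MetaICM its difference from control was −0.598 (adjusted p = 0.00327), just short of the fold cutoff. DUSP2, a nuclear phosphatase with 1.38 CPM in control, fell by −2.47 after 3 days (adjusted p = 0.00488) and −1.97 after 6 days (adjusted p = 0.00501). These changes rest on few counts, in all 40 in control, 9 after 3 days and 13 after 6 days. DUSP2 also passed the count filter only through control, where it was high. The gene called higher was DUSP1, a nuclear phosphatase of several MAP kinases, which rose by 0.83 after 3 days (adjusted p = 0.00112) and by 0.66 after 6 days (adjusted p = 0.00199). In MetaICM 3 of 16 were called higher, among them DUSP10 (1.04, adjusted p = 0.000531), and 1 lower, against 7.41% and 8.99% over all genes. Against 6 days, DUSP8 was higher in MetaICM by 1.33 (adjusted p = 9.901e-06) and, against 3 days, by 1.00 (adjusted p = 0.00125). Against control, however, DUSP8 was not called in MetaICM (0.34, adjusted p = 0.249) and was called lower after 6 days (−0.99, adjusted p = 0.00921).

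In the shedding group (4 genes), 1 was called higher than control after 3 days (8.85% over all genes) and 1 lower after 6 days (17.2%). In MetaICM 0 were called, where 7.41% of all genes were called higher and 8.99% lower. The gene called lower was RHBDF2, an iRhom that carries the protease ADAM17 to the surface (−1.21, adjusted p = 0.00128). RHBDF2 was also called lower after 6 days than after 3 days by −0.78 (adjusted p = 0.0116). It was higher in MetaICM than after 6 days by 1.00 (adjusted p = 9.378e-05), while MetaICM differed from control by −0.21 (adjusted p = 0.403). Of the 17 adaptors and core kinases, 2 were called higher after 3 days (8.85% over all genes), 3 higher and 1 lower after 6 days (13.3% and 17.2%), and 2 higher and 3 lower in MetaICM (7.41% and 8.99%). MAP2K1, which encodes the ERK kinase MEK1, rose by 0.94 (adjusted p = 0.000307) and 1.08 (adjusted p = 7.164e-05) at the 2 ICM time points. The scaffold gene KSR1 was lower after 6 than after 3 days by −0.78 (adjusted p = 9.761e-06). It was also called lower than control after 6 days (−1.12, adjusted p = 7.874e-05) and in MetaICM (−0.71, adjusted p = 0.00299). MAPK3, which encodes ERK1, was called higher than control in all 3 comparisons. The difference was 0.74 after 3 days (adjusted p = 0.0108), 0.72 after 6 days (adjusted p = 0.00514) and 0.90 in MetaICM (adjusted p = 0.00321). MetaICM differed from 6 days by 0.18 (adjusted p = 0.143).

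Of the 13 outputs of ERK signaling, 2 were called higher and 1 lower after 3 days (8.85% and 13.2% over all genes), 3 higher and 1 lower after 6 days (13.3% and 17.2%) and 3 in each direction in MetaICM (7.41% and 8.99%). EGR1, an immediate early transcription factor, fell by −1.05 (adjusted p = 0.0143), −1.59 (adjusted p = 0.00192) and −1.43 (adjusted p = 0.0208) in the 3 comparisons with control, whose 2 libraries were far apart (76.3 ± 40.8 CPM, SD). FOS was lower in MetaICM by −1.97 against control (adjusted p = 0.00394), by −1.44 against 3 days (adjusted p = 0.00203) and by −1.81 against 6 days (adjusted p = 6.954e-06). Its 2 MetaICM libraries were far apart (4.23 ± 3.11 CPM, SD). CCND1, cyclin D1, was higher in MetaICM by 1.37 against control (adjusted p = 0.000196), by 1.54 against 3 days (adjusted p = 2.843e-09) and by 0.83 against 6 days (adjusted p = 6.348e-09), and rose by 0.70 between 3 and 6 days (adjusted p = 9.846e-06). IER3, an early response gene, rose by 1.13 after 3 days (adjusted p = 0.00948), which is uncertain for 3 reasons. It is counted over 6 copies of its locus, including alternate haplotypes, and it overlaps its antisense gene IER3-AS1. Its 2 control libraries were also far apart (29.3 ± 16.3 CPM, SD).

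**Figure D4:**
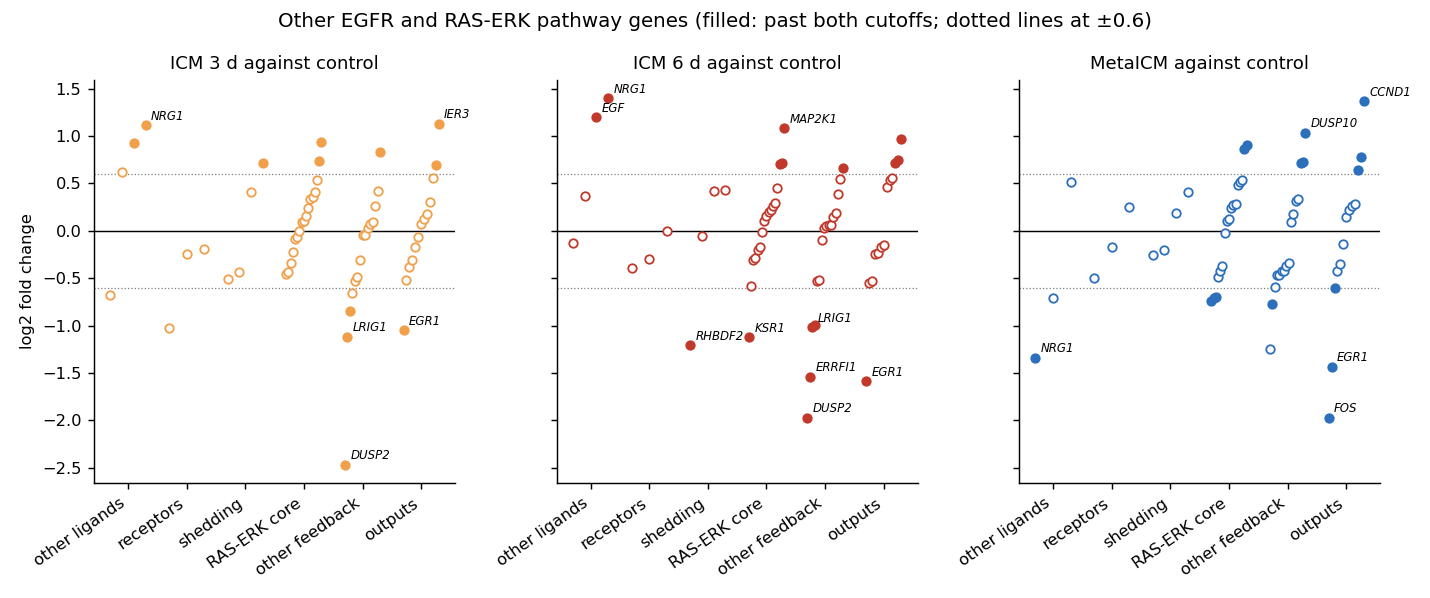
Difference from control (log2FC, vertical axis) of the other pathway genes tested, grouped by role along the horizontal axis, in the 3 comparisons with control. Filled points passed both cutoffs, dotted lines mark ± 0.6, and names are given for the called genes with the largest differences. After 6 days the RAS-ERK core, other feedback and output groups hold called genes on both sides of 0, and NRG1 changes side between the ICM conditions and MetaICM.

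Genes whose levels followed a member most closely over the 8 libraries were sought for the ligand and the feedback gene with the highest mean RPKM, by Pearson's r of log2 CPM among 10937 genes. The libraries share 4 conditions, so the coefficients are a description of shared levels. Closest to HBEGF were ITPK1 (r = 0.999), SNHG1 (0.985), RBBP7 (0.969), DSP (0.967) and TMEM200A (0.963). Of these, DSP, which encodes the desmosome protein desmoplakin, differed most from control after 6 days (log2 difference of means −1.29) and ITPK1 by −0.53. Closest to DUSP5 were C17orf80 (0.979), CNIH1 (0.971), LIN7C (0.966), MON1B (0.961) and GSTZ1 (0.961), with log2 differences after 6 days from 0.31 for CNIH1 to 1.20 for GSTZ1. In MetaICM the log2 differences of these 5 genes from control lay between −0.06 and 0.05, and that of DUSP5 was −0.10.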

How the data were processed

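RNA from 8 factory RNA-Seq libraries (4 conditions, 2 each) was analysed. The authors aligned read pairs to hg19 (GRCh37) with STAR (2.6.0c) and deposited, per library, counts of pairs on the exons of each gene, not normalized. Per the file headers, featureCounts (1.6.3) counted primary alignments on either strand, required both ends of a pair to map and dropped chimeric ones. The study's methods state unique counts for mRNA-Seq, and for factory RNA-Seq only that sequencing was alike, so how pairs on several places entered these tables, which bears on AREG, is not settled. Introns, on which the study's own nascent RNA values rest, were not analysed here.

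Libraries were grouped by their labels and compared in 6 pairs of conditions, 4 libraries per fit, with edgeR (4.0.16, R 4.3.3): TMM normalization, filterByExpr at a count minimum of 10, quasi-likelihood test and Benjamini-Hochberg adjustment over all genes tested. A gene was called at an adjusted p under 0.05 and an absolute log2FC over 0.6. Standard errors are the absolute log2FC over the square root of F. RPKM used the deposited exon lengths. Alternatives were DESeq2 (1.42.0), its size factors, library totals, 2 other count filters, a joint fit of all 8 libraries, a block on replicate numbers, an adjusted p of 0.01, and each library left out.

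Replicates with the same number were checked for shared deviations: r over genes was 0.196, 0.073 and −0.041 for control with 3 days, 6 days and MetaICM, 0.094 for 3 with 6 days, and 0.029 and −0.114 for MetaICM with 6 and 3 days. With 2 pairs each, this does not establish a pairing. In simulated data with 200 changed genes, all 200 were recovered in each of the 6 fits, with 5 to 14 false calls. Only well covered genes were changed, and by more than most of the differences called in members. Recovery of smaller changes, or of changes in genes as low as AREG (mean 1.52 CPM over 8 libraries), was therefore not tried. Tables were handled with Python 3.11.15, pandas 2.3.3, numpy 2.4.6 and scipy 1.17.1, and figures drawn with matplotlib 3.10.9.

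The members and lists were chosen with earlier results of these data known. Named are all members, in each comparison up to 3 called pathway genes per direction with the largest absolute log2FC, EGFR, and the 5 genes most like HBEGF and DUSP5. BTC and DUSP1 were named after their values were seen, as was EPGN outside the comparison of MetaICM with 6 days. Values of MAPK3, DUSP8, RHBDF2, KSR1, LRIG1 and FOS outside the comparisons that named them were also added after they were seen.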

Additional observations from a re-analysis of the deposited data

Results flagged for a closer look

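The difference between the time points, tested directly as 6 days against 3 days of ICM, passed both cutoffs in edgeR's quasi-likelihood test for 4 members. The log2FC was 2.17 for AREG, 1.79 for EREG, 0.77 for DUSP6 and 0.60 for SPRY2. For each of them both 6-day libraries were above both 3-day libraries, but so they were for 4736 of all 15845 genes tested. SPRY2 lies on the cutoff. AREG rests on 34 counts after 3 days and 156 after 6 days, at 2 near-identical loci. With 2 libraries per condition, no test for an outlying library was possible.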

How the results depend on the processing

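With 2 libraries per condition, leaving one out makes the lone library of its condition borrow the spread of the others. AREG, with 4 counts in MetaICM, is limited by depth. Under other settings, 414 log2FC of members kept their direction and side of the cutoffs, 3 changed sign, 3 gained and 15 lost a call. With a library left out, these numbers were 182, 14, 8 and 10. The cause of the changes below was not tested.

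Members called after 3 days against control numbered 1, and 1 to 3 with each library left out (3 without control replicate 1, 2 without control replicate 2 or 3-day replicate 2). For MetaICM against control, 4 members were called, but 2 with DESeq2, 2 with at least 10 counts in every library (where AREG was not tested) and 2 at an adjusted p under 0.01, and 2 to 5 with each library left out (2 without MetaICM replicate 1). Pathway genes called there numbered 16, and 8 to 21 with each library left out (8 without MetaICM replicate 2).

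Library totals turned the sign of DUSP6 (0.044) and SPRY4 (0.044) after 3 days and of SPRED1 (0.005) after 6 days, none of them called. With each library left out, the log2FC against control crossed 0 after 3 days for AREG (−0.55 to 0.65), EREG (−0.88 to 0.99), DUSP6 (−0.26 to 0.22) and SPRY4 (−0.17 to 0.10), after 6 days for SPRED1 (−0.079 to 0.011), and in MetaICM for HBEGF (−0.75 to 0.078), DUSP5 (−0.273 to 0.097) and SPRY4 (−0.037 to 0.214). Between 6 and 3 days it crossed 0 for HBEGF (−0.027 to 0.723), and between MetaICM and 3 days for SPRED1 (−0.076 to 0.024).

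With the replicate number as a block, 2 members were called after 3 days against control, the second being DUSP4 (0.77, adjusted p = 0.0335). DUSP4 was also called from 3 to 6 days with the block (0.66, adjusted p = 0.0118), and DUSP5 lost its call between MetaICM and 3 days (−0.59). Since r was weakly negative for same-numbered MetaICM and 3-day libraries (−0.114), crossed pairs were tried after seeing the data, with 5 members and 15 pathway genes called. Pairs picked from the same libraries they are used on lend these calls no support.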
